A study of Homo sapiens with 6 samples.

Results

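The hypoxia response genes described here are 10 genes of the oxygen-sensing pathway: HIF1A, EGLN1, EGLN3, VEGFA, NDRG1, BNIP3, BNIP3L, HILPDA, ADM and ANKRD37. They were picked by symbol from a deposited table of counts that holds 31966 genes, and each symbol had a single row. They are called the members of the set. The libraries came from Kasumi-1, an established acute myeloid leukaemia line with the RUNX1-RUNX1T1 fusion. In the FBL knockdown group (n = 3) the cells expressed an inducible hairpin RNA (shFBL) against FBL, which encodes fibrillarin, a methyltransferase of ribosomal RNA. In the control group (n = 3) they expressed a hairpin against luciferase (shLUC). Cells of both groups received doxycycline, which switches the hairpins on, at 100 ng/ml for 72 h. The labels give 1 hairpin name per group and 1 cell line, and do not say whether shFBL is a single hairpin. Effects of a hairpin on targets other than FBL were not tested. The labels are also silent on whether the replicates are separate cultures. Every p-value here rests on the spread among these 6 libraries, which could be technical.

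Cells sense oxygen through enzymes of the EGLN family, which hydroxylate prolines of the HIF alpha subunits. The hydroxylated subunit is bound by the VHL ubiquitin ligase and destroyed. When oxygen is low, the alpha subunit accumulates, pairs with ARNT and binds short sites with a core of ACGTG or GCGTG near its target genes. The control of HIF1A is thus known mainly as a control of its protein, which was not measured in the data used here. Several of the 10 genes are textbook HIF targets and part of feedback: EGLN3 limits HIF, VEGFA and ADM act on blood vessels, and BNIP3 and BNIP3L mark mitochondria for autophagy.

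The libraries held 85556322 to 95023102 counts in the knockdown group and 88541034 to 103148412 counts in the control group. FBL itself stood at 43.8 ± 10.8 CPM in knockdown libraries and 558 ± 19.6 CPM in control libraries (SD, n = 3 each), where CPM is the count scaled to a common library size with TMM factors. Of 9 markers of Kasumi-1 and myeloid progenitors, 8 had a mean above 1 CPM. Their summed level was 5200 to 6220 CPM in knockdown libraries and 6940 to 8430 CPM in control libraries, nearly all of it from MPO, the myeloid peroxidase. MPO fell (5411 CPM on average in knockdown libraries, 7254 CPM in control libraries; log2 fold change -0.42 ± 0.11, edgeR adjusted p = 0.0134), and the progenitor marker CD34 rose (4.03 against 2.54 CPM; 0.67 ± 0.13, edgeR adjusted p = 0.0024). The other 7 did not pass. The summed markers of T and NK cells reached 1.25 to 1.32 CPM in knockdown libraries and 0.662 to 0.952 CPM in control libraries. Of these, NKG7 rose (1.11 CPM on average in knockdown libraries, 0.469 CPM in control libraries; log2 fold change 1.24 ± 0.19, edgeR adjusted p = 0.000835). CD3E lay lower without passing (0.158 against 0.289 CPM; -0.86 ± 0.40, edgeR adjusted p = 0.124), and CD3D and GNLY were near 0. The summed markers of epithelial cells and fibroblasts reached 0.141 to 0.238 CPM against 0.0512 to 0.107 CPM, those of endothelium 0.180 to 0.228 CPM against 0.182 to 0.225 CPM, and those of erythroid cells 0.0217 to 0.119 CPM against 0.0395 to 0.0429 CPM. Mitochondrial ribosomal RNA took 2.04% to 2.51% of counts in knockdown libraries and 1.31% to 1.4% in control libraries. The libraries also differed in GC composition. The slope of the log2 level on the GC content of transcripts was -0.14 per 10 percentage points of GC in control replicate 1 and 0.15 in control replicate 2. It lay between -0.06 and 0.12 in the other 4 libraries. The part that these differences play in the results was not tested, apart from a per-library GC correction.

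To show what the promoters of such genes look like, 3 stretches before the start of a member are printed, for a gene that rose (BNIP3), a gene that did not pass the test (HIF1A) and a gene with almost no reads (EGLN3). They are RefSeq sequence of GRCh38.p14, read 5′ to 3′ on the strand of the gene, and were trimmed to the part of the 250 bases before the RefSeq start that no GENCODE v29 exon covers. RefSeq and GENCODE place the start of some of these genes differently. Capitals mark the HIF-type cores ACGTG and GCGTG on either strand, so that CACGT and CACGC are the cores read on the opposite strand.
BNIP3, chr10:131982014-131982173, minus strand: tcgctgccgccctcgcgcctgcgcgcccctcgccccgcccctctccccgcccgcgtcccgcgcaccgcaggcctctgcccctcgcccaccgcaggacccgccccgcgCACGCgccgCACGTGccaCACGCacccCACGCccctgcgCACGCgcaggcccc
HIF1A, chr14:61695263-61695512, plus strand: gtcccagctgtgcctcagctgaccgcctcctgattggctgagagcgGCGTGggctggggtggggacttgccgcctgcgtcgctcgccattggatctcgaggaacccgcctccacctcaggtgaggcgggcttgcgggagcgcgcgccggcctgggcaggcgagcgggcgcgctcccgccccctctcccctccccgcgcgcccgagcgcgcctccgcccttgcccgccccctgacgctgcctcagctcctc
EGLN3, chr14:33951082-33951324, minus strand: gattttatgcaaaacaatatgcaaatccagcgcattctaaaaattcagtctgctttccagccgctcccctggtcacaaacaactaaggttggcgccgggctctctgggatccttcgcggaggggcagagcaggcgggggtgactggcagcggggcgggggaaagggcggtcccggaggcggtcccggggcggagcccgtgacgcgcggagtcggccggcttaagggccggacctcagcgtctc
The BNIP3 stretch of 160 bases held 6 cores, of which the CACGTG is 2 overlapping cores that read the same on both strands. The HIF1A stretch of 250 bases held 1 core, and the EGLN3 stretch of 243 bases held 0. RefSeq windows of 300 bases (250 before to 50 after the start) were found for 6 members. In them the EGLN1 window held 1 core, the ANKRD37 window 3 and the ADM window 1, while a second HIF1A start held 0. Of 35116 such windows of all genes, 21.4% held ACGTG, 36.5% held GCGTG and 48.4% held at least 1 of them, so a match is common and only describes the letters in the window. VEGFA, HILPDA, NDRG1 and BNIP3L are named only.

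The comparison of FBL knockdown with control asked how these 10 transcripts differ once FBL RNA is lowered. The fibrillarin protein was not measured in the data used here. The genes did not move together: NDRG1, BNIP3 and BNIP3L rose, HILPDA fell, 5 others did not pass the test, and EGLN3 had too few counts to be tested. Of the 10 genes, 9 passed the filter on low counts, and ADM passed it only through the knockdown libraries, where it is higher. Thus 3 members rose and 1 fell at an adjusted p under 0.05 (edgeR quasi-likelihood test, Benjamini-Hochberg adjustment over 18486 genes). Over all tested genes 32.8% passed, 15.8% higher and 17% lower. Among the 7463 genes within the CPM range of the 8 members above 1 CPM (3.02 to 48.4 CPM), 40.1% passed, 17.5% higher and 22.6% lower. The 4 members that passed are thus a share near the background. In these bulk samples a change in the number of cells of one kind and a change in RNA per cell cannot be told apart.

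**Figure D1:**
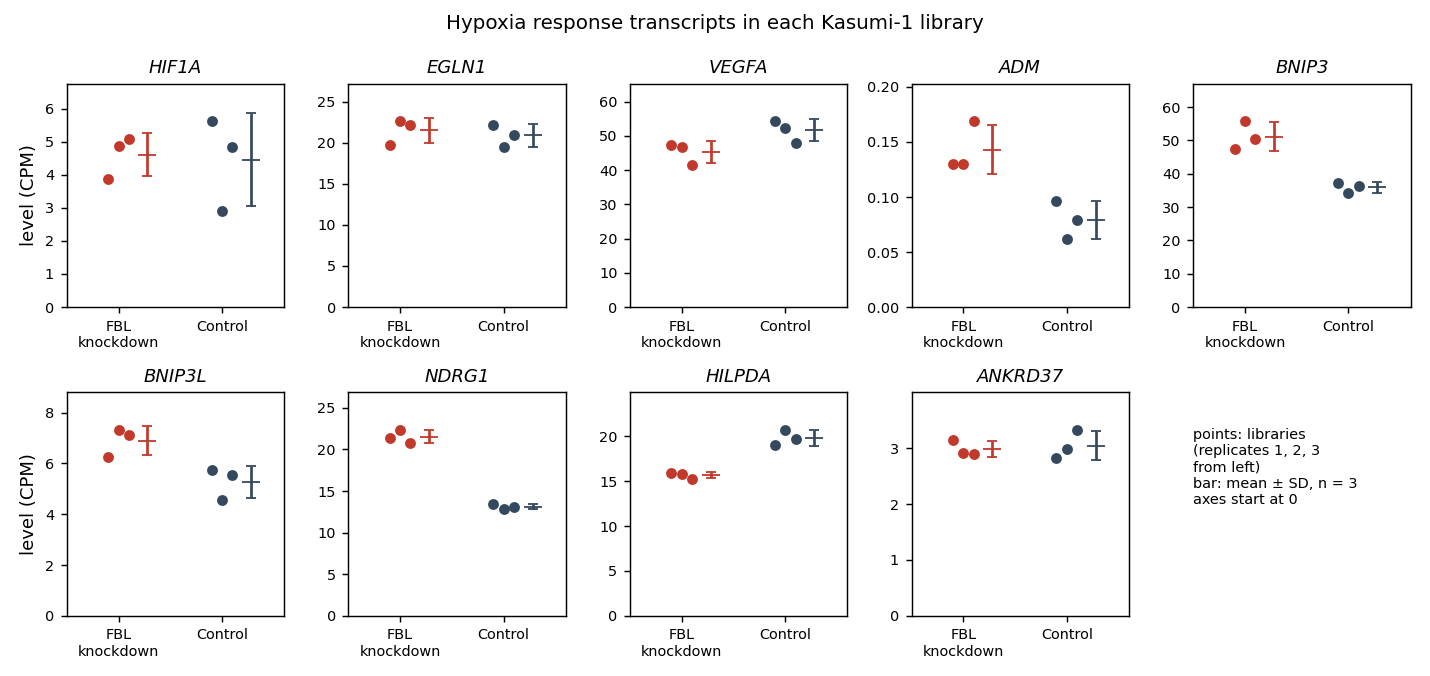
Levels of 9 hypoxia response transcripts in CPM (vertical axes from 0) in each of the 3 FBL knockdown libraries (red, left) and the 3 control libraries (dark, right), with the mean and SD beside the points. NDRG1 and BNIP3 lie higher in every knockdown library, HILPDA lies lower in each, and the groups overlap for HIF1A, EGLN1 and ANKRD37.

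The transcription factor subunit HIF1A (ENSG00000100644, GRCh38 chromosome 14, 61695513 to 61748259) comes first in the pathway. Its level was 3.87, 4.87 and 5.08 CPM in knockdown libraries, against 5.63, 2.90 and 4.85 CPM in control libraries. The control libraries held both the highest and the lowest value, so the groups overlapped. The log2 fold change of knockdown over control was 0.05 ± 0.21 (SE, n = 3 each; edgeR adjusted p = 0.884), and its 95% interval covered 0.75-fold to 1.42-fold. Control replicate 2 set the low value; without it the log2 fold change was -0.19 (edgeR adjusted p = 0.296), with the sign turned. The longest HIF1A transcript has a GC content of 36.4%, and control replicate 2 had the highest GC slope of the 6 libraries. After the GC correction the log2 fold change was 0.01 (edgeR adjusted p = 0.939). The antisense genes HIF1A-AS1 and HIF1A-AS2 had at most 4 counts in any library.

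The oxygen sensors came next. EGLN1 (chromosome 1, 231363751 to 231425044), the main HIF prolyl hydroxylase, stood at 19.8, 22.7 and 22.1 CPM in knockdown libraries and at 22.2, 19.5 and 21.0 CPM in control libraries. The values interleave. Its log2 fold change was 0.04 ± 0.09 (SE; edgeR adjusted p = 0.76), with a 95% interval from 0.893-fold to 1.19-fold. EGLN3 (chromosome 14, 33924231 to 34462774), the family member most strongly induced by hypoxia, had 1 count in FBL knockdown replicate 3, 1 count in control replicate 2 and 0 in the other 4 libraries. A count of 0 allows up to 3 counts, or 0.0297 to 0.0338 CPM in these libraries, and no fold is given. EGLN2, the related enzyme that is not one of the 10 genes, averaged 10.3 ± 0.97 CPM in knockdown and 12.1 ± 0.09 CPM in control libraries (SD, n = 3 each; log2 fold change -0.22 ± 0.10, edgeR adjusted p = 0.103). Per length, EGLN1 made up 65.3% ± 2.6 of the summed EGLN1, EGLN2 and EGLN3 level in knockdown libraries and 61.0% ± 1.6 in control libraries (SD, n = 3 each). The share was higher in each of the 3 knockdown libraries than in any control library. The 2-sided exact permutation test gave p = 0.1, the smallest that 3 against 3 can give.

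Of the secreted factors, VEGFA (chromosome 6, 43770184 to 43786487), the endothelial growth factor, had 47.3, 46.8 and 41.6 CPM in knockdown libraries and 54.4, 52.3 and 48.1 CPM in control libraries. Every knockdown library was below every control library. The difference did not pass the test, with a log2 fold change of -0.19 ± 0.09 (SE; edgeR adjusted p = 0.126) and a 95% interval from 0.766-fold to 1.00-fold. An antisense gene that overlaps VEGFA, AL136131.3, had 291 to 328 counts in knockdown libraries and 328 to 381 in control libraries, beside 3690 to 4361 and 4860 to 5108 counts for VEGFA, and the strand setting of the counting is not given in the sources used here. The vasodilator peptide adrenomedullin (ADM, chromosome 11, 10304680 to 10307397) was nearly silent, with 12, 12 and 15 counts in knockdown libraries and 9, 6 and 8 counts in control libraries. Its level of 0.143 ± 0.023 CPM in knockdown libraries and 0.079 ± 0.018 CPM in control libraries (SD, n = 3 each) gave a log2 fold change of 0.85 ± 0.35 (SE; edgeR adjusted p = 0.0881), or adjusted p = 0.179 with no filter.

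The mitophagy receptors BNIP3 and BNIP3L, paralogues on the outer mitochondrial membrane, both rose. BNIP3 (chromosome 10, 131966455 to 131982013) had 47.3, 55.9 and 50.3 CPM in knockdown libraries and 37.3, 34.1 and 36.3 CPM in control libraries. The lowest knockdown library lay above the highest control library. The level was 1.43-fold higher (log2 fold change 0.51 ± 0.09, SE; edgeR adjusted p = 0.00156; 95% interval 1.24-fold to 1.64-fold), and the call was kept in all 18 alternative settings tried. BNIP3 has many processed pseudogene copies that can share its reads, so its level is uncertain. The copy with the most counts in the table, BNIP3P1, stood at 19.7, 22.5 and 19.3 CPM in knockdown libraries and 16.9, 14.5 and 14.2 CPM in control libraries, and rose as well (log2 fold change 0.44 ± 0.10; edgeR adjusted p = 0.00825). BNIP3P1 took 27.8% to 29.4% of the sum with BNIP3 in knockdown libraries and 28.1% to 31.1% in control libraries. Whether reads were shared between the gene and the copy was not tested. The sum of both was also higher in each knockdown library, at 67.0 to 78.4 CPM against 48.6 to 54.1 CPM in control libraries.

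BNIP3L (chromosome 8, 26382898 to 26505636) was expressed at a lower level, with 6.27, 7.33 and 7.11 CPM in knockdown libraries and 5.73, 4.57 and 5.57 CPM in control libraries. The groups did not overlap, but FBL knockdown replicate 1 came close to control replicate 1. Its 1.30-fold rise (log2 fold change 0.38 ± 0.12, SE; edgeR adjusted p = 0.0315) lost its call in 8 of 18 alternative settings, where the adjusted p reached up to 0.123. Leaving out FBL knockdown replicate 2, FBL knockdown replicate 3, control replicate 2 or control replicate 3 ended it, with edgeR adjusted p of 0.123, 0.0842, 0.0627 and 0.0687 in turn. So did library-size scaling (0.0769) and the 2 limma-trend fits on the RPKM values (0.053 and 0.0523). Per length, BNIP3 made up 85.7% ± 0.49 of the sum of both paralogues in knockdown libraries and 84.6% ± 1.0 in control libraries (SD, n = 3 each). The share ranges of the groups overlapped, and a 2-sided exact permutation test gave p = 0.2.

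NDRG1 (chromosome 8, 133237171 to 133302022), a stress-responsive gene induced by hypoxia and by differentiation, had the largest called change of the members. It stood at 21.4, 22.4 and 20.8 CPM in knockdown libraries and at 13.4, 12.9 and 13.0 CPM in control libraries. The replicates of each group lay close together and the groups were far apart. The level was 1.64-fold higher (log2 fold change 0.72 ± 0.08, SE; edgeR adjusted p = 0.000167; 95% interval 1.44-fold to 1.87-fold), and all 18 alternative settings kept the call. HILPDA (chromosome 7, 128455849 to 128458418), a small lipid droplet protein that inhibits the lipase PNPLA2, went the other way. It had 15.9, 15.8 and 15.3 CPM in knockdown libraries and 19.0, 20.8 and 19.7 CPM in control libraries, with every knockdown library lower. The log2 fold change was -0.34 ± 0.08 (SE; edgeR adjusted p = 0.0109), or 0.791-fold, and the call was lost in 2 of 18 settings, one of them the omission of FBL knockdown replicate 3 (adjusted p = 0.082). ANKRD37 (chromosome 4, 185396021 to 185400628), an ankyrin-repeat protein, had 3.16, 2.91 and 2.89 CPM in knockdown libraries and 2.82, 2.99 and 3.33 CPM in control libraries. Its groups overlapped. The log2 fold change was -0.03 ± 0.12 (SE; edgeR adjusted p = 0.873), and the sign turned under upper-quartile scaling.

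**Figure D2:**
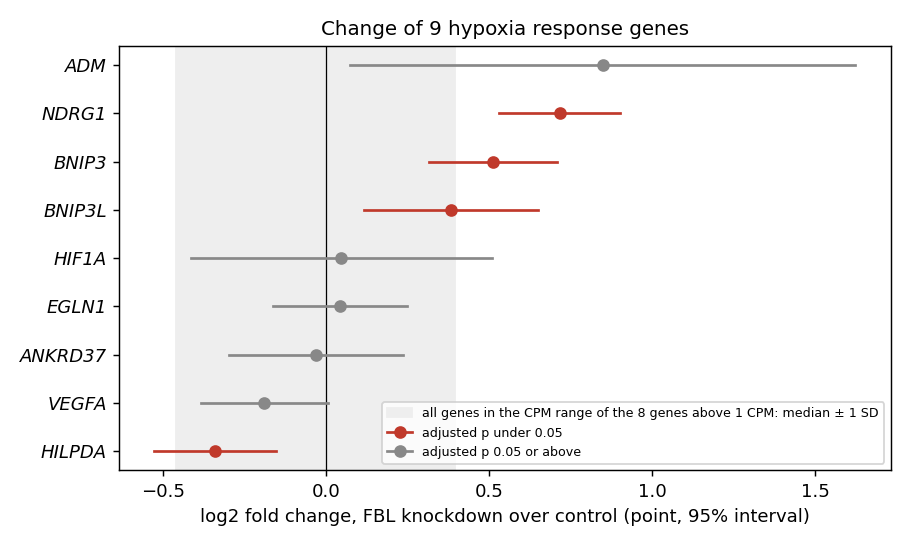
Log2 fold change of FBL knockdown over control (horizontal axis) with its 95% interval for the 9 hypoxia response genes that were tested, from the edgeR fit; red genes passed at an adjusted p under 0.05, grey genes did not. The shaded band is the median ± 1 SD of all genes in the CPM range of the 8 genes above 1 CPM. NDRG1 (0.72) and BNIP3 (0.51) lie to the right of it, and HILPDA (-0.34) lies inside it. ADM (0.85, not passed) is also plotted to the right. Its mean of 0.11 CPM is below that range, so the band does not describe genes at its level.

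Of the 9 tested genes, 6 had groups that did not overlap, namely NDRG1, BNIP3, BNIP3L, ADM, VEGFA and HILPDA, where 45.2% of all tested genes had such groups. As ADM entered the test only through its higher group, this count is a description.

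Per length, the order of BNIP3 and HILPDA at the top depended on how BNIP3 was counted. On the deposited RPKM scale (counts adjusted for gene length and library size), BNIP3 led in knockdown libraries with 9.59 ± 0.70 RPKM, followed by HILPDA with 7.56 ± 0.24 RPKM (SD, n = 3 each). In control libraries HILPDA led with 9.60 ± 0.46 RPKM, ahead of BNIP3 with 6.75 ± 0.28 RPKM. Within each group the ranges of both genes did not overlap. With the BNIP3P1 counts added to BNIP3, at the length of BNIP3, the level was 12.8 to 14.6 RPKM in knockdown libraries, still above HILPDA. In control libraries it was then 9.18 to 10.1 RPKM and overlapped with HILPDA at 9.18 to 10.1 RPKM, so HILPDA no longer led. VEGFA followed with 3.13 ± 0.24 RPKM in knockdown libraries and 3.58 ± 0.22 RPKM in control libraries. EGLN1 had 2.95 ± 0.17 and 2.88 ± 0.18 RPKM in knockdown and control libraries, and VEGFA and EGLN1 overlapped in the knockdown libraries but not in the control libraries. NDRG1 had 2.19 ± 0.08 RPKM in knockdown libraries, above BNIP3L, whereas in control libraries it had 1.34 ± 0.02 RPKM and overlapped with BNIP3L. BNIP3L had 1.598 ± 0.11 and 1.23 ± 0.14 RPKM in knockdown and control libraries, and ANKRD37 had 1.16 ± 0.07 and 1.183 ± 0.10 RPKM. HIF1A had 0.891 ± 0.11 and 0.866 ± 0.27 RPKM. ADM was far lower, at 0.053 ± 0.008 and 0.029 ± 0.006 RPKM, and EGLN3 was last.

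The other genes of the pathway were described from 6 lists of 109 genes, of which 94 were tested. Of these, 18 rose and 26 fell, or 19.1% and 27.7%, beside 15.8% and 17% of all genes. Among genes at 3.02 to 48.4 CPM the shares were 17.5% and 22.6%, and the lists also hold genes outside this range. The glycolysis list gave 14 of the 26 falls. Of 6 tested HIF subunits and coactivators 1 rose and 0 fell, with a median log2 fold change of 0.07. The acetyltransferase CREBBP, a coactivator of HIF, rose to 8.18 ± 0.26 CPM in knockdown libraries, against 5.79 ± 0.74 CPM in control libraries (log2 fold change 0.50 ± 0.11, edgeR adjusted p = 0.00677). ARNT, the constant partner of HIF1A, and EPAS1, the other main alpha subunit, were not picked by the naming rule and are given for their role. ARNT averaged 17.5 ± 0.70 CPM in knockdown libraries and 17.1 ± 1.8 CPM in control libraries (log2 fold change 0.04 ± 0.10, edgeR adjusted p = 0.808). EPAS1 was nearly absent, at 0.202 ± 0.045 and 0.188 ± 0.034 CPM in knockdown and control libraries (SD, n = 3 each).

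In the list of oxygen sensing and HIF destruction 3 of 12 genes rose and 1 fell, and the median was 0.02. P4HTM, a membrane-bound prolyl hydroxylase, rose (0.59 ± 0.13, edgeR adjusted p = 0.00557). HIF1AN, the asparagine hydroxylase that blocks the binding of coactivators to HIF, fell to 75.9 ± 3.2 CPM in knockdown libraries, against 98.5 ± 2.4 CPM in control libraries (SD, n = 3 each; log2 fold change -0.38 ± 0.08, edgeR adjusted p = 0.00388). The rises of the ubiquitin ligase SIAH1 (0.32 ± 0.11, edgeR adjusted p = 0.0483) and of VHL (0.27 ± 0.09, edgeR adjusted p = 0.0436) were near the threshold and were lost in 13 and 8 of 18 alternative settings, with adjusted p up to 0.188 for SIAH1 and 0.199 for VHL.

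Glycolysis genes that HIF is known to induce fell more often than they rose. Of 22, 14 fell (63.6%) and 3 rose (13.6%), beside 17% and 15.8% of all tested genes. Their median log2 fold change was -0.45, beside a median of -0.01 over all tested genes. Several of them lie far above 48.4 CPM, among them GAPDH, ENO1 and TPI1 at means of 8345, 2520 and 2193 CPM. No share was computed for genes at such levels. SLC2A3, a glucose transporter, fell to 12.8 ± 0.58 CPM in knockdown libraries, against 27.1 ± 3.3 CPM in control libraries (SD, n = 3 each, log2 fold change -1.08 ± 0.10, edgeR adjusted p = 6.16e-05). SLC2A1, a more abundant glucose transporter of the list, was not picked by the naming rule. It averaged 184.9 ± 10.3 CPM in knockdown libraries and 180.3 ± 21.1 CPM in control libraries (log2 fold change 0.04 ± 0.10, edgeR adjusted p = 0.804). The phosphoglycerate kinase PGK1 fell to 262.9 ± 12.2 CPM in knockdown libraries, against 519 ± 51.8 CPM in control libraries (log2 fold change -0.98 ± 0.09, edgeR adjusted p = 5.33e-05). The enolase ENO2 (0.96 ± 0.14, edgeR adjusted p = 0.000525) and the lactate exporter SLC16A3 (0.95 ± 0.18, edgeR adjusted p = 0.00211) rose. Their mean levels were 3.13 and 7.01 CPM in knockdown libraries, against 1.61 and 3.62 CPM in control libraries.

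Of 32 other tested hypoxia-inducible targets 6 rose and 8 fell, and their median was -0.03. LONP1, a mitochondrial protease, fell most (-1.44 ± 0.13, edgeR adjusted p = 4.81e-05). The repressor BHLHE40 (0.88 ± 0.14), the chemokine receptor CXCR4 (0.84 ± 0.19) and the repressor NFIL3 (0.76 ± 0.20) rose at 1.64 to 2.11 CPM in knockdown libraries (edgeR adjusted p from 0.00114 to 0.0135). With the stricter filter, which drops such weak genes, 0 of this list rose. NFIL3 lost its call in 3 of 17 alternative settings, among them without FBL knockdown replicate 2 and without control replicate 3 (adjusted p up to 0.0759).

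**Figure D3:**
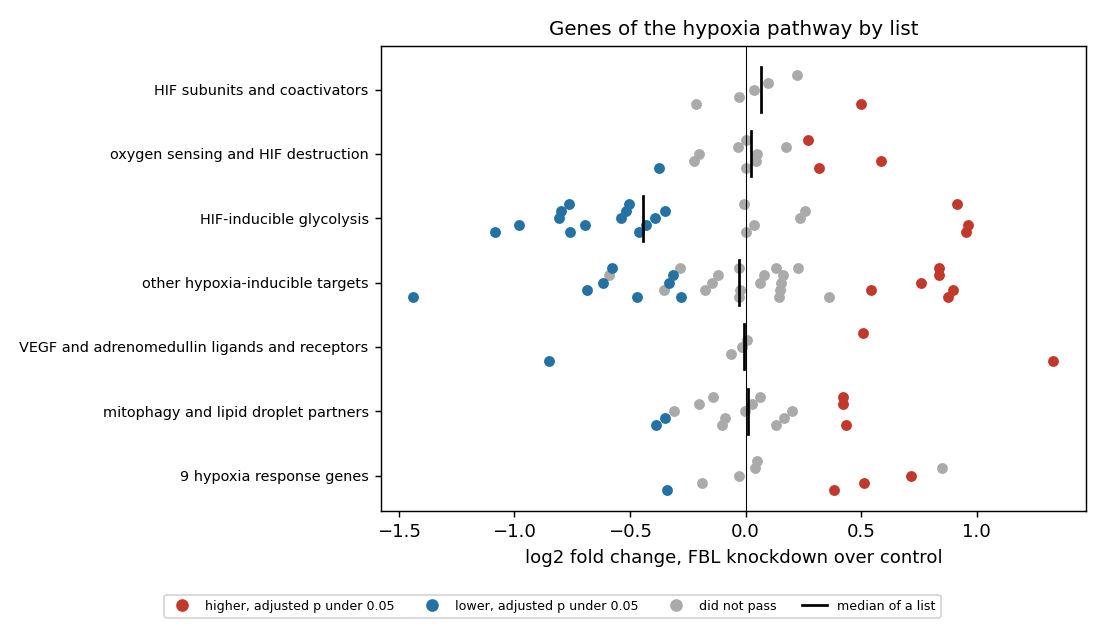
Log2 fold change of FBL knockdown over control (horizontal axis) for each tested gene of 6 pathway lists and of the hypoxia response genes (rows); red points rose and blue points fell at an adjusted p under 0.05, grey points did not pass, and vertical lines are list medians. The glycolysis list has 14 blue points and a median of -0.45, and the other list medians lie between -0.03 and 0.07.

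Among ligands and receptors around VEGFA and ADM, 2 of 6 tested genes rose and 1 fell, and the median was 0.00. RAMP2, the accessory protein that turns the receptor CALCRL into an adrenomedullin receptor, rose and stood at 28.1 ± 2.1 CPM in knockdown libraries and 11.2 ± 0.50 CPM in control libraries (SD, n = 3 each; log2 fold change 1.33 ± 0.09, edgeR adjusted p = 1.73e-05). No level is given here for CALCRL, so whether the receptor itself was present or changed was not examined. VEGFB, a relative of VEGFA, rose (0.51 ± 0.10, edgeR adjusted p = 0.00343), and ADM2, a peptide related to adrenomedullin, fell (-0.85 ± 0.15, edgeR adjusted p = 0.00176). In the list of mitophagy and lipid droplet partners 3 of 16 rose and 2 fell, and the median was 0.01. Beside BNIP3, the mitophagy kinase PINK1 (0.43 ± 0.08, edgeR adjusted p = 0.00216) and the receptor BCL2L13 (0.42 ± 0.08, edgeR adjusted p = 0.00365) rose. The NDRG1 relative NDRG2 rose at a low level (0.42 ± 0.13, edgeR adjusted p = 0.0255; lost in 6 of 17 settings, adjusted p up to 0.0944), and the autophagy factor BECN1 fell (-0.39 ± 0.09, edgeR adjusted p = 0.00792; lost without FBL knockdown replicate 3, adjusted p = 0.0655).

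**Figure D4:**
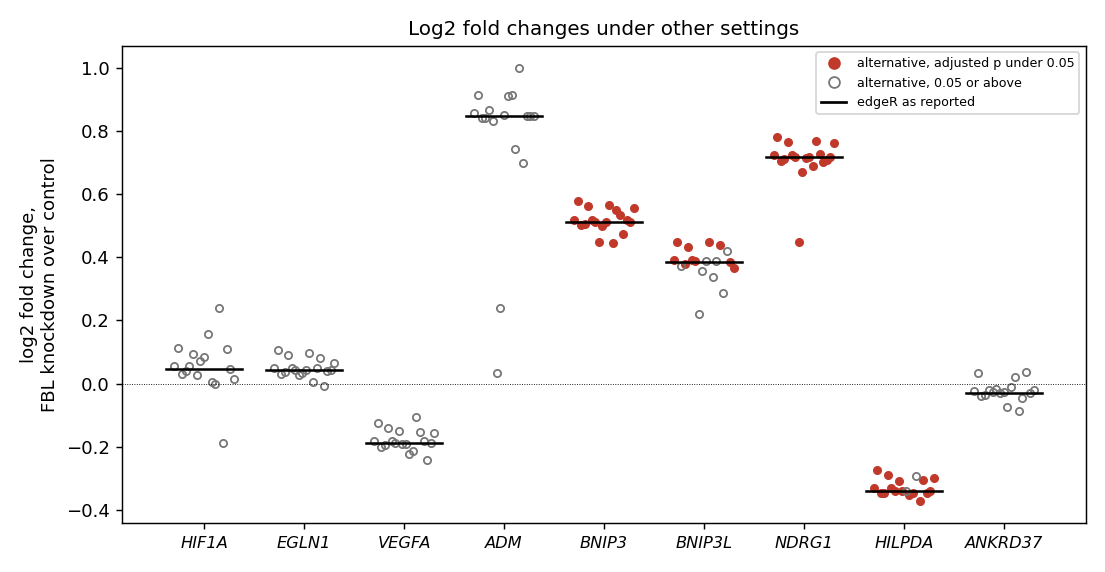
Log2 fold change of FBL knockdown over control (vertical axis) for 9 hypoxia response genes under each alternative setting (points; filled where the adjusted p is under 0.05, open otherwise) and in the edgeR fit as reported (black bars). NDRG1 ranges from 0.45 to 0.78 and BNIP3 from 0.45 to 0.58 with all points filled, BNIP3L has both kinds of points, and HIF1A crosses 0.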

How the data were processed

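Per the labels' protocols, total RNA of 6 Kasumi-1 samples was sequenced from NEBNext Ultra libraries. Per the submitters' processing notes, the tools were cutadapt 1.18, HISAT2, featureCounts and edgeR, with the build GRCh38. Which annotation release and strand setting were used, and how multi-mapping reads were handled, is not given in the sources used here. The authors deposited whole-number counts per Ensembl gene, and RPKM values that in all 191796 cases matched those recomputed from the counts, lengths and scaled totals within a relative tolerance of 1e-06. The authors also deposited a gene length. It was used for that check, and it underlies the RPKM values and the levels and shares given per length.

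Counts were filtered with filterByExpr (minimum count 10, minimum total 15; 18486 of 31966 genes kept), normalised by TMM (trimmed mean of M values) and tested with edgeR 4.0.16 in R 4.3.3 (glmQLFit and glmQLFTest on group, Benjamini-Hochberg adjustment over all tested genes, threshold 0.05). Standard errors and 95% intervals came from the quasi-likelihood F statistic. The alternatives used limma 3.58.1 and DESeq2 1.42.0 too. Positions are from GENCODE v29. No columns of samples were left unused.

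The 10 genes and the pathway lists were chosen with earlier results of these data known. From each list, at most 4 genes are named by rule: of those that passed and averaged 1 CPM or more, the ones that changed most. A few further genes are given for their role or level. Intervals and limits on counts of 0 cover counting error or the spread between libraries only.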

Additional observations from a re-analysis of the deposited data

How the results depend on the processing

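Of 18 alternatives to the fit, 16 were listed with the design and 2, the per-library GC correction and the legacy dispersion of edgeR, were chosen after seeing the data. NDRG1 and BNIP3 kept their direction and their call in all 18. The count of members called higher lay between 2 and 3, and that of members called lower was 0 with the replicate block and 0 to 1 when each library was left out. Omission of each library gave 1861 to 3298 genes called higher and 1835 to 3644 lower, and 13 to 19 higher and 17 to 26 lower genes in the pathway lists. Of these omissions, FBL knockdown replicate 2 gave 1861 higher and 2064 lower, FBL knockdown replicate 3 gave 1835 lower, and control replicate 3 gave 1909 higher. The stricter filter gave 1926 genes called higher and 11 in the pathway lists, by its construction from fewer genes tested. The replicate block gave 1846 higher and 1987 lower genes. In the other direction, the per-library GC correction called 8486 genes (4186 higher and 4300 lower), or 45.9% of those tested, beside 3 members higher and 1 lower. Same-numbered libraries did not deviate together (correlations of -0.27, -0.18 and 0.04). No knockdown library correlated best with the control library of its own number, and of the control libraries only replicate 3 did so. These correlations cannot settle whether the numbers pair the samples, because library differences such as the GC slopes could also enter them. The labels do not say it either. With the block BNIP3L (adjusted p = 0.102) and HILPDA (adjusted p = 0.0573) lost their calls. Signs of log2 fold changes turned only for genes that did not pass: HIF1A without FBL knockdown replicate 3 (-0.002) and without control replicate 2 (-0.187), EGLN1 without control replicate 2 (-0.00608), and ANKRD37 under upper-quartile scaling (0.034), without FBL knockdown replicate 3 (0.022) and without control replicate 3 (0.037). The cause was not tested. When each library was left out in turn, HIF1A ranged from -0.187 to 0.239, EGLN1 from -0.00608 to 0.0982 and ANKRD37 from -0.0874 to 0.0372. With the counts of BNIP3P1 added to BNIP3, also chosen after seeing the data, the mean difference of BNIP3 minus HILPDA became 5.87 RPKM in knockdown libraries (2.03 for BNIP3 alone) and 0.00827 RPKM in control libraries (-2.84 for BNIP3 alone). The share of EGLN1 was higher in knockdown by 2.84 to 5.15 percentage points and that of BNIP3 by 0.774 to 1.67 when each library was left out. With about 0.1 CPM, ADM is limited by depth, and EGLN3 was not detectable at this depth beyond single counts. HIF1A, ADM and ANKRD37 are below the stricter filter and have no value there.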

Other observations

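Neighbouring and nested genes share the places of some members. SPTSSA, a subunit gene of the enzyme that starts sphingolipid synthesis, lies within the long annotated span of EGLN3 on the same strand. It had 1382 to 1565 counts in knockdown libraries and 1350 to 1393 counts in control libraries, while EGLN3 had at most 1. UFSP2, a protease of the UFM1 pathway, overlaps ANKRD37 on the opposite strand, with 351 to 397 counts in knockdown libraries and 317 to 421 counts in control libraries, beside 256 to 291 and 263 to 337 counts for ANKRD37. Their counts overlap between the groups for UFSP2 and ANKRD37, and the strand setting of the counting is not given in the sources used here. PNMA2, on the opposite strand of the BNIP3L locus, had 8 to 22 counts in knockdown libraries and 2 to 9 counts in control libraries. HIF1AP1, the processed pseudogene of HIF1A, had at most 1 count in any library.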
